A study of Zea mays with 32 samples.

Results

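The 150 genes described here were those with the largest average excess in the fifth leaf over the ninth leaf of maize (Zea mays), out of 39756 genes in the deposited table. They were chosen from the measured values themselves. A gene qualified with a mean normalized count of at least 100 over 32 libraries and, on the scale of log2(normalized count + 1), a lower mean in the ninth than in the fifth leaf in each of 7 landraces. Of 19936 genes with that mean level, 1228 (6.16%) met the sign condition, and the 150 with the most negative average over the 7 landraces were kept. The eighth landrace, Tabloncillo, took no part in the sign condition or the ranking, but its 4 libraries counted in the mean level. Its leaf difference was thus not used to choose, while a high level in Tabloncillo could help a gene to qualify.

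The samples were leaf primordia at plastochron stage 4, an age counted by the younger leaves that have since begun to form. The study's title concerns vein density and photosynthesis. The samples came from 8 native maize landraces, named in the labels as Gordo, Jala, Mushito, Nal-tel, Palomero, Reventador, Tabloncillo and Zapalote. All plants grew at 35 °C, the treatment is given as heat for every sample, and no group at another temperature was analysed here. The fifth leaf is labelled V5 and the ninth V9, with 2 libraries for each landrace and leaf, in 16 groups. A landrace is a farmers' variety whose plants differ genetically from one another. The labels do not say how many plants made up a library or whether replicates were grown separately, so p-values measure the spread between these libraries, which may be technical. The library numbers in the labels run through the fifth leaf first and then through the ninth, so leaf and order of the libraries cannot be told apart.

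A maize shoot forms its leaves one after another at the shoot apex. Early leaves carry juvenile traits such as a waxy surface without hairs, and later leaves carry adult traits such as hairs, a transition called vegetative phase change. It is governed by a microRNA that declines as the plant ages and by the SPL transcription factors that this microRNA represses. The table does not pair its IDs with gene names, and 0 of its IDs matched the reference table at hand, so no role, name or position is given to any gene here. For the same reason the tissue was not checked against markers of leaf primordia.

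Recovered reads per library ran from 54.8 to 121.0 M with a median of 66.0 M. The deepest library was the ninth leaf replicate 1 of Tabloncillo. All 150 genes passed the filter for testing, a mean of at least 10. In 137 of them every library held more than 3 reads, and of 4800 gene and library values 29 were at or under 3 reads, 5 for leaf 5 and 24 for leaf 9. In no gene were all 4 libraries of a landrace at or under 3 reads.

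The libraries of Tabloncillo went against their leaf labels in part. Each gene was centred on its mean over the 32 libraries, and the median over the 150 genes was taken in each library on the log2 scale. In the 7 other landraces this median lay between 0.34 and 1.21 in the 14 libraries of the fifth leaf and between -1.30 and -0.40 in the 14 of the ninth, which the choice of genes fixes. In Tabloncillo it was -0.11 and 1.30 in the fifth leaf and -0.46 and 0.44 in the ninth. The ninth leaf replicate 2 thus stood above the fifth leaf replicate 1. Whether libraries of Tabloncillo were exchanged or mislabelled was not tested. If they were, every leaf difference given for Tabloncillo would change its meaning, so these values hold only for the libraries as labelled.

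**Figure D1:**
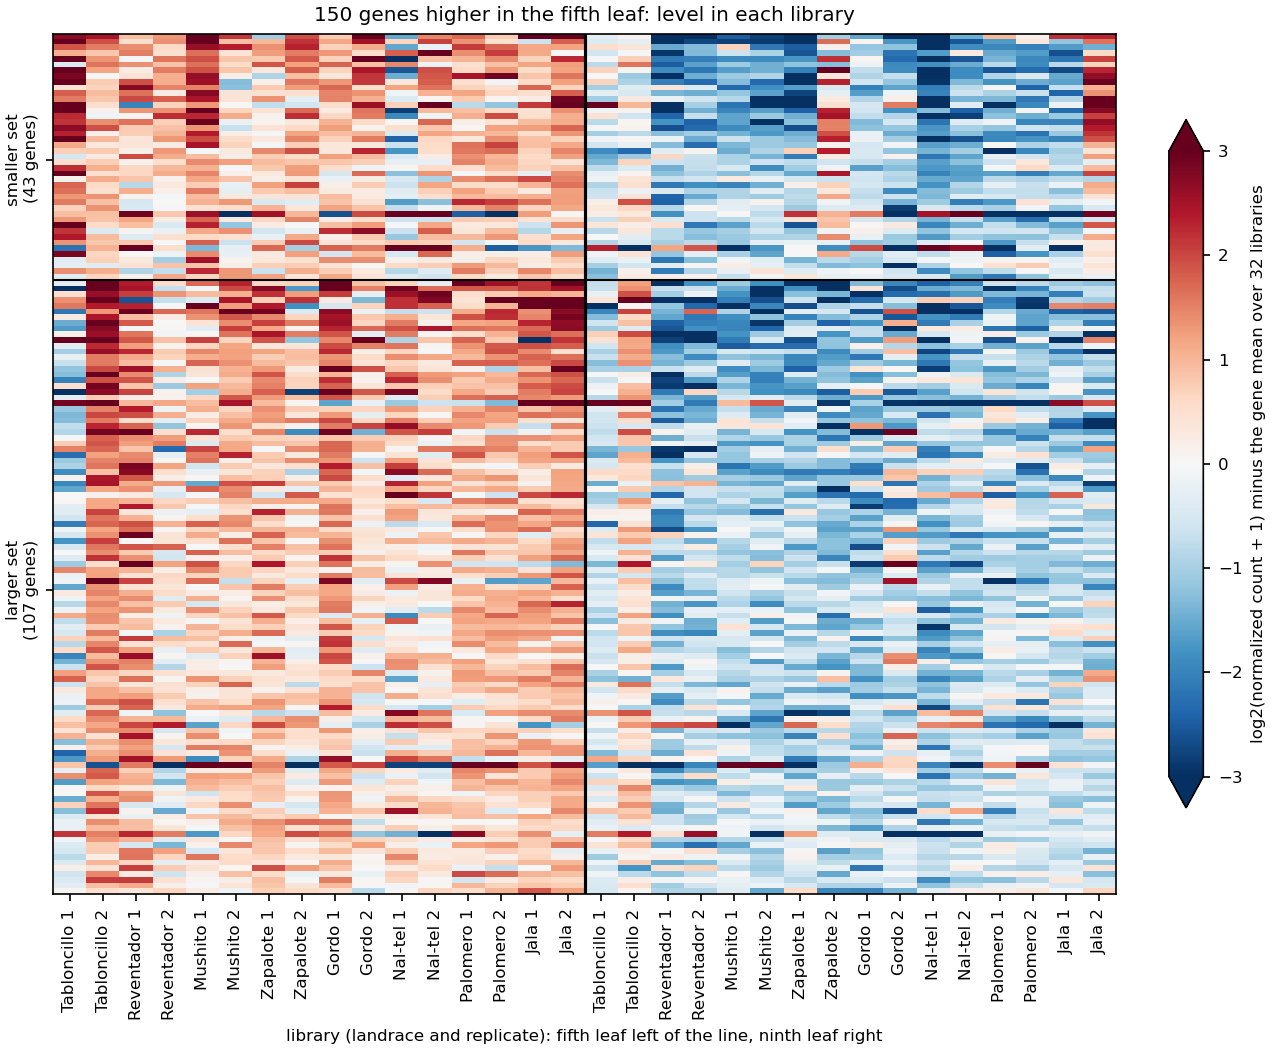
Level of the 150 genes (rows, ordered by rank within 2 sets described in the text) in the 32 libraries (columns), as log2(normalized count + 1) minus the gene's mean. Red is above and blue below the mean, and colours stop at 3. The fifth leaf libraries are mostly red and the ninth mostly blue in 7 landraces, by choice of the genes, while Tabloncillo and the ninth leaf replicate 2 of Zapalote and Jala depart in some rows.

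Most of the genes lay below the median level of the genes that average 100 or more. The mean normalized count of the 150 ran from 101.3 to 10033, with a median of 334.9 and quartiles of 189.0 and 612.5. Over all 19936 genes that average 100 or more the median was 1519. A mean of at least 1000 was reached by 24 of the 150 (16%) and by 61.5% of that larger group. Over the 7 landraces the median gene stood at 476.0 for leaf 5 and at 169.4 for leaf 9. The genes together held between 0.154% and 0.253% of the reads of a library of leaf 5, with a median of 0.206%. In the ninth leaf of the same landraces the share had a median of 0.0611% and ran from 0.0505% to 0.188%. Of the reads of the 150 genes, 9.59% fell on 1 gene and 28.4% on the 5 most abundant. In bulk tissue, fewer cells of a type and less RNA per cell cannot be told apart.

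The size of the difference varied between genes and between landraces, and the following values describe the choice and support nothing beyond it. The mean of the 7 differences, ninth minus leaf 5, ran from -3.88 to -1.05 with a median of -1.50 on the log2 scale. It was at or beyond 4-fold in 37 genes and at or beyond 8-fold in 7. The last 2 genes kept had means of -1.055 and -1.053, and the first 2 left out had -1.053 and -1.048, so the limit of 150 falls in a continuous range. The spread of the 7 differences within a gene, highest minus lowest, had a median of 1.80 and ran from 0.43 to 6.29. In 40 genes all 7 landraces differed by at least 2-fold, in 99 genes 4 to 6 landraces did, and in 11 genes 3 or fewer.

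By landrace, the median difference of the 150 genes was -1.65 in Reventador, -1.65 in Mushito, -1.60 in Palomero, -1.56 in Jala, -1.55 in Gordo, -1.49 in Nal-tel and -1.47 in Zapalote. The medians over all 26156 tested genes lay within 0.014 of 0 in each landrace. The order of the landraces changed from gene to gene. Jala held the largest of the 7 differences in 32 genes and also the smallest in 31, Reventador the largest in 22 and the smallest in 14, and Mushito the largest in 21 and the smallest in 12.

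Whether the libraries of the leaves overlap adds the spread between replicates. Both leaf 5 libraries stood above both ninth leaf libraries in 142 of the 150 genes in Palomero (25.3% of all tested genes did so there). The same held for 135 in Mushito (23.7% of tested genes), 132 in Nal-tel (21.4%) and 126 in Reventador (25.7%). It held for 114 in Gordo (18.8%), 111 in Zapalote (21.8%) and 108 in Jala (22.3%). The rule used these contrasts, so the counts are read as descriptions. The leaves did not overlap within any of the 7 landraces in 58 genes, and in 6 of 7 landraces in 37 more. In 21 genes this held in 4 landraces or fewer, and in the gene with the fewest it held in 1. For these counts over landraces the share of all tested genes was not determined. Across landraces, all 14 leaf 5 libraries stood above all 14 ninth leaf libraries in 8 of the 150 genes (0.0573% of all tested genes, 15 in number).

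The gene with the most negative average, Zm00001eb009540, was at very different levels in the landraces. In Jala its normalized counts were 1413 and 3835 for leaf 5 against 457.4 and 486.5 for leaf 9. In Reventador they were 184.4 and 244.5 against 1.996 and 0, with at most 2 reads in a ninth leaf library. Jala thus had more of this transcript in the ninth leaf than Reventador had in the fifth. Mushito had 1383 and 432.7 against 16.88 and 13.4, and Gordo 167.4 and 1088 against 33.09 and 3.957. In Zapalote the values were 47.33 and 379.2 against 2.295 and 47.25, so the leaves all but touched. In Palomero (323 and 167.6 against 196 and 110.4) and Nal-tel (33.29 and 275.9 against 2.082 and 34.84) they overlapped. Tabloncillo had 636.7 and 552.2 against 80.94 and 105.5 (-2.67, SE 1.33, limma adjusted p = 0.310), with the leaves apart. Averaged over both leaves, this gene differed between landraces (limma F-test, adjusted p = 0.00115), with a span of 5.77 on the log2 scale from Reventador, the lowest, to Jala, the highest.

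The gene ranked next, Zm00001eb403780, kept its leaves apart in every landrace of the rule. Its leaf 5 libraries had 1081 and 299 in Reventador, 675.9 and 1032 in Mushito, 317.3 and 329.4 in Zapalote and 2230 and 381.2 in Gordo. The ninth leaf libraries of the same landraces had 23.95 and 58.18, 98.89 and 58.08, 4.59 and 24.65, and 81.74 and 53.42. Its highest ninth leaf value in the 7 landraces, 134.6, lay under its lowest leaf 5 value, 175.2, which makes it one of the 8 genes above. In Nal-tel it went from 331.8 and 175.2 to 37.48 and 49.77, in Palomero from 1667 and 1211 to 134.6 and 120.3, and in Jala from 924.1 and 1874 to 96.76 and 88.22. In Tabloncillo the leaves overlapped, with 172.9 and 2203 against 125.9 and 490.4 (-1.31, SE 0.97, limma adjusted p = 0.515). Between landraces it had a limma adjusted p of 0.0187 in the F-test.

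**Figure D2:**
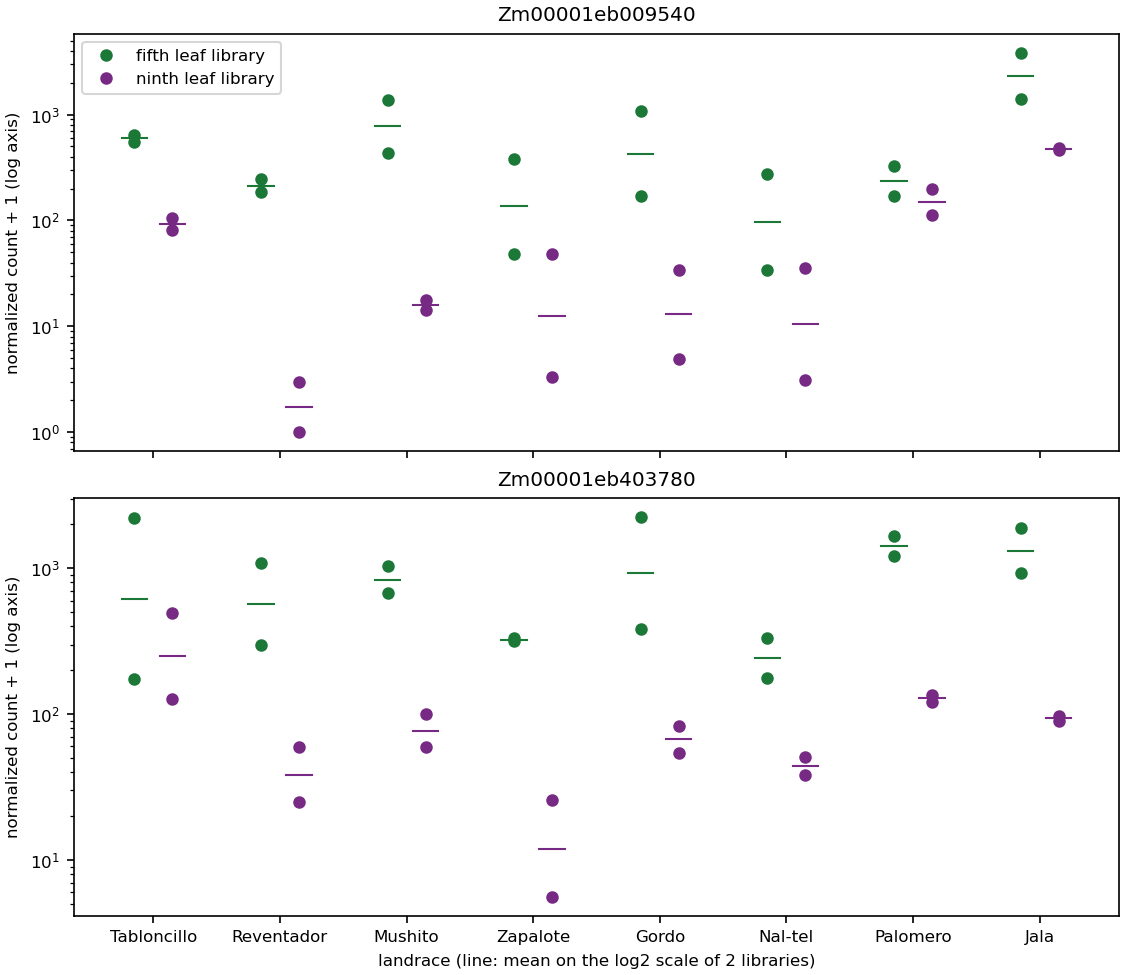
Normalized count + 1 on a log axis in each library for the first 2 genes by rank. Points are libraries, lines the mean of 2 libraries on the log2 scale, and colours the leaves. The leaves are apart in each of the 7 landraces other than Tabloncillo in the lower panel, and overlap in Nal-tel and Palomero in the upper one.

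The Tabloncillo libraries address whether the same genes are also higher in the fifth leaf of a landrace whose leaf difference did not choose them. The mean was lower in the ninth leaf in 124 of the 150 genes (82.7%), against 51.1% of all tested genes. The median difference was -0.67 on the log2 scale, against -0.01 over all tested genes. No single gene passed: 0 of 150 had a limma adjusted p under 0.05, where 55 of 26156 tested genes did (0.21%), and the smallest adjusted p among the 150 was 0.0538. At an unadjusted p under 0.05 there were 23 of the 150 (15.3%), all lower in the ninth leaf, and 4509 of all tested genes (17.2%). Other fits moved the unadjusted share of the 150 above that of all tested genes: it was 30.7% against 19.6% in DESeq2, 23.3% against 17.2% in edgeR and 16.7% against 7.48% in limma on the 4 Tabloncillo libraries alone. Without the fifth leaf replicate 1 of Tabloncillo it was 37.3% against 10.4%, and without the ninth leaf replicate 1 it was 8% against 16.3%. After adjustment, on the recovered reads edgeR called 0 of the 150 (8 of all tested genes) and DESeq2 5 (1096 of all).

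The standard errors were wide for these genes. The median standard error of the Tabloncillo difference was 0.71 for the 150 genes and 0.29 for all tested genes. Both leaf 5 libraries stood above both ninth leaf libraries in 46 of the 150 (21.3% of all tested genes), and the reverse order was found in 0 of the 150 (19.7% of all tested genes). In the remaining 104 genes the leaves overlapped. In 78 genes the difference was above the range of the other 7 landraces, in 66 within it and in 6 below it. The difference in Tabloncillo had a median of 0.448 of that gene's average in the 7 landraces. It was larger among genes of higher rank: the median was -1.04 for the first 50 by rank, -0.80 for the next 50 and -0.48 for the last 50.

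The direction of the median turned on 1 library. Over the 4 ways to pair the fifth with the ninth leaf libraries of Tabloncillo, the median difference of the 150 genes was -1.69 for the fifth leaf replicate 2 with the ninth leaf replicate 1, and 144 genes were lower. It was -0.91 for the fifth leaf replicate 2 with the ninth leaf replicate 2 (133 lower) and -0.42 for replicate 1 with replicate 1 (94 lower). For the fifth leaf replicate 1 with the ninth leaf replicate 2 it was 0.44, and 55 genes were lower. Without the fifth leaf replicate 2 the median over the 150 genes was 0.15, so its direction turned, and without the fifth leaf replicate 1 it was -1.29. Without the ninth leaf replicate 1 it was -0.25, and without the ninth leaf replicate 2 it was -1.19. The 4 libraries held 73.1 and 69.3 M reads for leaf 5 and 121.0 and 70.5 M for leaf 9, and the part of depth in these differences was not tested.

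**Figure D3:**
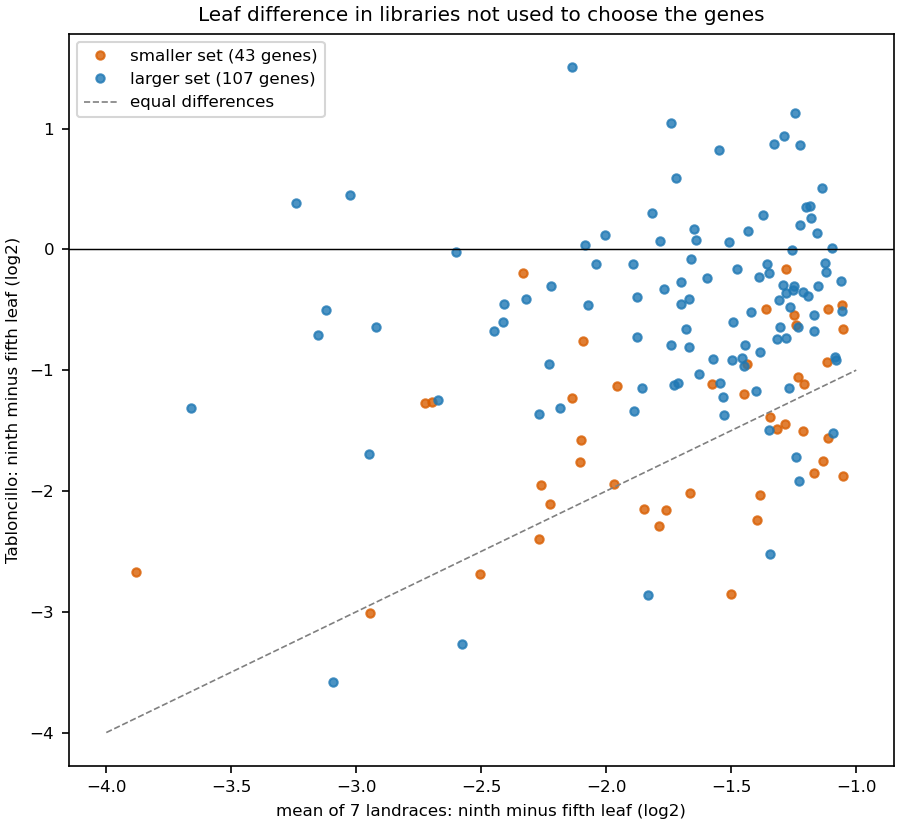
Ninth leaf minus leaf 5 in Tabloncillo (vertical axis, log2) against the mean of the 7 landraces whose differences chose the genes (horizontal axis, log2), 1 point per gene. The Tabloncillo libraries entered the choice only through the mean level. Most points lie under 0, 124 of 150, and most lie above the dashed line of equal differences; the smaller set lies wholly under 0.

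With all 4 libraries, the most negative difference in Tabloncillo among the 150 was that of Zm00001eb164950. It had 191.6 and 336.2 for leaf 5 against 5.621 and 67.48 for leaf 9, a difference of -3.58 (SE 1.16, limma adjusted p = 0.131). It was -1.90 without the ninth leaf replicate 1 and -5.27 without the ninth leaf replicate 2, so its place in this order rests on those libraries. In the 14 leaf 5 libraries of the other landraces it ran from 17.01 to 1480 with a median of 185.7, and in the 14 ninth leaf libraries from 4.824 to 181.6 with a median of 16.1. The next, Zm00001eb326540, had 851.9 and 413.6 against 47.21 and 77.93 (-3.27, SE 1.81, limma adjusted p = 0.361), and lay between -3.79 and -2.75 without any 1 library. The leaves of Tabloncillo do not overlap in either gene, yet neither passed the test across all genes. Zm00001eb326540 had a mean normalized count of 108.19 over all libraries, just above the minimum of 100 that the choice required. It was highest in Tabloncillo, while in the other landraces its leaf 5 median was 78.38 and its ninth leaf median 8.48. Its high level in Tabloncillo thus helped it to qualify, so its difference there is not independent of the choice. In Zm00001eb326540 the fifth leaf replicates of Jala lay far apart, at 2.257 and 156.2, and so did those of its ninth leaf, at 2.199 and 96.01.

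At the other end, Zm00001eb077880 had the most positive difference in Tabloncillo. It had 1.965 and 483.9 in the fifth leaf and 74.19 and 154 in the ninth, a difference of 1.51 with an SE of 1.72 (limma adjusted p = 0.696). The fifth leaf replicates thus lay on both sides of the ninth. In count models the sign was negative, with log2 fold changes of -1.08 in edgeR and -1.08 in DESeq2, and without the fifth leaf replicate 1 it was -2.17 in limma. Zm00001eb068280 had 548.3 and 4424 against 4024 and 2879 (1.13, SE 0.91, limma adjusted p = 0.554), again with the fifth leaf replicates on both sides, and -0.38 without the fifth leaf replicate 1. In the other landraces its leaf 5 libraries ran from 478.3 to 11182 with a median of 2491.

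How the genes differ between 2 replicates of 1 landrace and leaf is a measure that the rule, which took group means, did not use. The median absolute difference between replicates ran from 0.37 in the fifth leaf of Palomero to 1.79 in that of Tabloncillo on the log2 scale. In the genes that average 100 or more the same measure was 0.18 and 0.29 in those groups. The pooled replicate SD of the 150 genes had a median of 0.82 for leaf 5 and 0.71 for leaf 9, against 0.25 and 0.19 for the genes that average 100 or more, which are of higher level. These differences ran together across genes. In 6 of the 16 groups at least 100 of the 150 genes moved the same way between replicates, while the median over all tested genes stayed within 0.03 of 0 in every group.

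In the fifth leaf of Reventador 115 of the 150 genes were higher in replicate 1, against 50.4% of all tested genes. In that of Gordo 114 were higher in replicate 1, against 50.9%. In the ninth leaf of Nal-tel 114 were higher in replicate 2, against 49.8%. In the fifth leaf of Mushito and of Palomero the genes were evenly split, with 75 higher in each replicate.

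The 14 replicate differences of the 7 landraces, with no library of Tabloncillo, were used to sort the 150 genes into 2 sets by average linkage on 1 minus Pearson's r. The sets, of 43 and 107 genes, were made after values had been seen, so they are described with no test. In the smaller set the ninth leaf replicate 2 exceeded replicate 1 by a median of 1.77 in Jala and 1.64 in Zapalote. In the larger set the same differences were -0.08 and -0.14. In the fifth leaf of Reventador replicate 2 minus replicate 1 was 0.05 in the smaller and -1.08 in the larger set. In the fifth leaf of Mushito it was -1.27 in the smaller and 0.29 in the larger set, and in that of Nal-tel 1.20 and -0.36. The sets moved apart between replicates in both leaves, and in several groups in opposite directions. They were sorted on these same differences, so this describes how they were made.

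The smaller set held the more abundant genes, with a median of 465.9 against 296.0 and 4 of the 5 genes with the most reads. Its average difference over the 7 landraces was like that of the larger set, -1.45 against -1.51 in the median. In the ninth leaf of Jala it took 0.0233% of the reads of replicate 1 and 0.147% of those of replicate 2, and in that of Zapalote 0.0221% and 0.143%. In the ninth leaf of the other 5 landraces of the rule its share lay between 0.0160% and 0.0365%. Those 2 libraries hold the highest shares given above for the ninth leaf. In them the larger set took 0.0403% and 0.0316%, while its share elsewhere in the ninth leaf of these landraces reached 0.0503%. Within Jala the leaves did not overlap in 14 of the 43 genes and within Zapalote in 17, whereas in the larger set it was 94 and 94 of 107. Among all tested genes both leaf 5 libraries stood above both ninth leaf libraries in 22.3% in Jala and 21.8% in Zapalote.

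**Figure D4:**
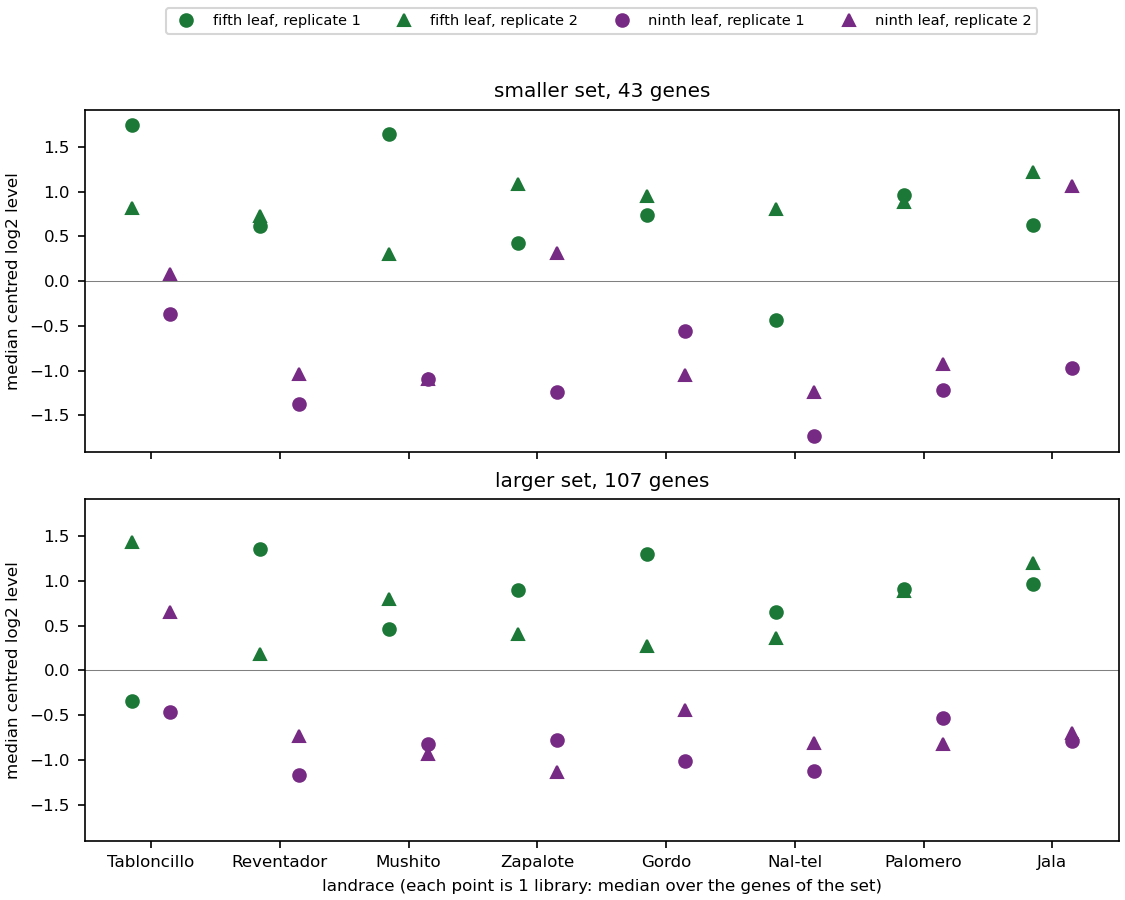
Median level of the smaller (43 genes) and larger (107 genes) set in each library, as log2(normalized count + 1) centred on each gene's mean. Colours are leaves and symbols replicates. In the upper panel the ninth leaf replicate 2 of Jala and Zapalote lie at leaf 5 levels (1.07 and 0.31), and in the lower panel the fifth leaf replicate 1 of Tabloncillo lies below 0 (-0.35), between the ninth leaf libraries of the other 7 landraces and their lowest leaf 5 library (0.18).

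The libraries of Tabloncillo had no part in making the sets. In the smaller set the mean was lower in the ninth leaf in 43 of 43 genes, with a median of -1.49, and the libraries did not overlap in 32. In the larger set it was lower in 81 of 107 with a median of -0.45, and the libraries did not overlap in 14. Both leaf 5 libraries stood above both ninth leaf libraries in 21.3% of all tested genes. The share of the larger set lay below this, and that of the smaller set above. Over the 4 pairings of libraries the smaller set had medians from -2.33 to -0.87, below 0 in each. The larger set had medians of 0.03 and 1.05 for the pairings with the fifth leaf replicate 1, and of -1.84 and -0.94 for those with replicate 2. In the fifth leaf replicate 1 of Tabloncillo the smaller set stood at 1.74, its highest value in the 32 libraries, and the larger set at -0.35. That library gave 0.291% of its reads to the smaller set, against 0.0850% in replicate 2. The difference between the sets was not tested. Other ways to group the genes kept or lost this pattern. With all 16 replicate differences the smaller set had 48 genes, of which 48 were lower, but there the Tabloncillo libraries helped to make the sets. With complete linkage the smaller set had 47 genes, of which 46 were lower. With weighted linkage it had 18 genes, of which 13 were lower, and without the ninth leaf differences of Jala and Zapalote 9, of which 9 were, and the split in Tabloncillo was then not seen (medians of -0.56 against -0.67 and of -0.66 against -0.67).

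Genes that followed these patterns were not limited to the 150. Among the 19936 genes that average 100 or more, the 14 replicate differences correlated with the median profile of the smaller set at r of at least 0.7 in 582 genes (2.92%), 25 of them among the 150. With the profile of the larger set it was 356 genes (1.79%), 32 of them among the 150. The profiles were computed from these genes, so their own counts are raised by that. The correlations are across 14 replicate pairs that share their libraries between genes, and are given as a description.

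Differences between landraces were tested on the mean of both leaves, a contrast other than the one that chose the genes. Of the 150 genes 48 (32%) differed between the 8 landraces by limma's F-test with Benjamini-Hochberg adjustment. Among all tested genes 40.5% did, and 38.5% of the genes that average 100 or more in the same fit. The place of this share against the background turned with the fit. DESeq2 called 92 of the 150 (61.3%) and 53.1% of all tested genes. Without the fifth leaf replicate 1 of Tabloncillo limma called 70 (46.7%) against 41.2%. Without all 4 libraries of Tabloncillo it called 60 (40.0%) over 7 landraces, against 41.0%. The span from the lowest to the highest landrace had a median of 1.57 on the log2 scale in the 150 genes and 0.53 in the genes that average 100 or more. It exceeded 10-fold in 14 of the 150 (9.33%) and in 4.30% of that larger group. These wider spans stand beside the wider replicate spread given above.

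Single landraces were each set against the mean of the other 7. Nal-tel had the most calls, 32 of the 150 (14.8% of all tested genes were called there), of which 25 were lower in Nal-tel. It was the lowest landrace in 54 of the 150, and its median against the other 7 was -0.44. Leaving out any 1 of its own libraries lowered that count, in fits that left a single library in a group. Without replicate 1 of the fifth or of the ninth leaf, its share lay below that of all tested genes. Without replicate 2 of either leaf, its share stayed above. Without Tabloncillo Nal-tel had 39 calls, against 4233 of 26156 tested genes, again a larger share. Reventador had 21 calls (21.2% of all tested genes), 17 of them lower, with a median of -0.27. Without Tabloncillo it had 29, against 5779 of 26156 tested genes. Its share lay below that of all tested genes in both fits. The count fell without its ninth leaf replicate 1, a fit that left a single library in that group. Of the genes called in these 2 landraces 5 were shared.

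In the other landraces few of the 150 passed. Zapalote had 8 (4.82% of all tested genes), 4 of them lower, 9 without Tabloncillo, and between 1 and 4 without any 1 of its own libraries, each time a smaller share than that of all tested genes. Jala also had 8 (8.35% of all tested genes), 6 of them higher, with a median of 0.30, and 16 when Tabloncillo was left out (10.7%, against 10.2% of all tested genes). Leaving out Jala's own libraries moved its count both ways, in fits that left a single library in a group. Without its ninth leaf replicate 1 the count rose, and its share lay above that of all tested genes. Without any other of its libraries the count fell, and its share lay below. Palomero had 7 (9.66% of all tested genes), 4 of them lower, 16 without Tabloncillo, 11 without the fifth leaf replicate 2 of Tabloncillo, and 2 to 4 without any 1 of its own libraries. Gordo had 5 (7.67% of all tested genes), 5 without Tabloncillo, 0 without its ninth leaf replicate 2, and 2 without either its leaf 5 replicate 2 or its ninth leaf replicate 1. Mushito had 3 (5.22% of all tested genes), 5 without Tabloncillo and also 5 without the ninth leaf replicate 2 of Tabloncillo. Tabloncillo had 7 (7.13% of all tested genes), all higher. It was the highest landrace in 45 of the 150, and 120 of the 150 lay above the mean of the other 7, with a median of 0.40. Its count was 1 without the ninth leaf replicate 2, 16 and 14 without replicate 1 of the fifth and of the ninth leaf, and 12 without the ninth leaf replicate 2 of Zapalote. In Tabloncillo edgeR called 20 (13.3%, against 7.97% of all tested genes) and DESeq2 27 (18.0%, against 11.8%), so in both count models the share of the 150 lay above that of all genes and in limma (4.67% against 7.13%) below it. In limma the share of the 150 also lay above without replicate 1 of the fifth or of the ninth leaf of Tabloncillo. By little, the same held without the ninth leaf replicate 2 of Zapalote. Each of these fits left a single library in a group.

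**Figure D5:**
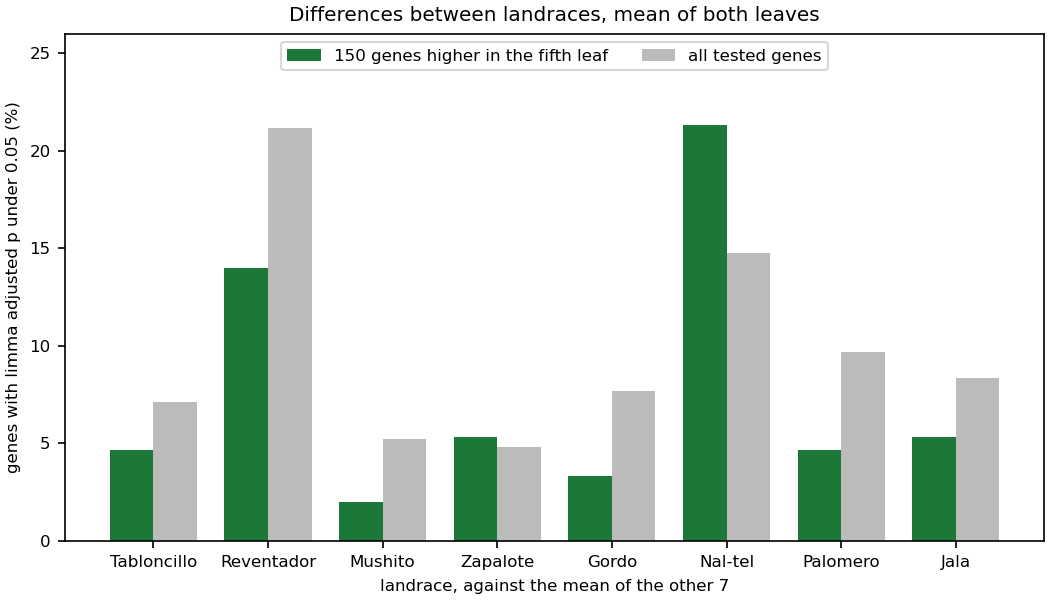
Percent of genes with a limma adjusted p under 0.05 in each landrace against the mean of the other 7, for the 150 genes (green) and all 26156 tested genes (grey). The green bar is above the grey one in Nal-tel (21.3% and 14.8%) and Zapalote (5.33% and 4.82%), and below it in the other landraces; in Nal-tel, Zapalote, Tabloncillo and Jala this order turned in other fits given in the text.

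The gene with the smallest landrace p among the 150 was Zm00001eb404780 (limma F-test, adjusted p = 7.25e-08). In the fifth leaf it had 2670 and 2044 in Jala, 1513 and 3415 in Tabloncillo and 392.3 and 1136 in Mushito. The same leaf gave 402.7 and 460.6 in Reventador and 393.6 and 217.5 in Zapalote. Gordo (67.38 and 174.1), Nal-tel (94.33 and 133.6) and Palomero (129 and 81.67) were lowest in that leaf. In the ninth leaf it stood at 1344 and 787.5 in Jala, 1721 and 1593 in Tabloncillo, and at 2.361 and 7.362 in Palomero. Palomero, the lowest landrace, and Tabloncillo, the highest, did not overlap in either leaf, and over both leaves they were 6.37 apart on the log2 scale. Without Tabloncillo the span was 6.05, from Palomero to Jala, and the limma F-test had an adjusted p of 2.07e-06.

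The next by landrace p was Zm00001eb122660 (limma F-test, adjusted p = 5.96e-05). Nal-tel was highest, with 785.8 and 358 for leaf 5 and 224.9 and 330.2 for leaf 9. Zapalote was lowest, with 64.87 and 75.35 for leaf 5 and 11.47 and 16.43 for leaf 9, and these landraces did not overlap. In Reventador the leaves overlapped in this gene (107.4 and 50.2 against 71.84 and 64.96), with a difference of -0.10. Its leaf order in Tabloncillo was 90.4 and 385.1 for leaf 5 and 295.6 and 433.4 for leaf 9 (0.93, SE 0.62, limma adjusted p = 0.457).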

How the data were processed

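Directional libraries were made from poly(A) RNA, per the labels' protocols. The submitters' processing notes name STAR, featureCounts and DESeq2; versions, genome build, annotation and the handling of reads shared by similar genes are not given in the sources used here. The authors deposited normalized counts, a signal of reads per gene scaled per library. In every library 100% of values were whole multiples of 1 step (tolerance 0.01 of a step), so whole reads were recovered for edgeR and DESeq2, whose calls stand beside the results. Among recovered values from 1 to 20, between 76.7% and 87.0% per library were even, so mates of a read pair may have been counted singly.

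Values were tested with limma 3.58.1 (R 4.3.3) on log2(value + 1), a scale that understates changes of low genes. The fit held 26156 genes with a mean of at least 10, 16 group means and a shared spread with a trend. Benjamini-Hochberg adjustment ran over all of them, with a threshold of 0.05. Python 3.11.15, numpy 2.4.6, pandas 2.3.3, matplotlib 3.10.9, edgeR 4.0.16 and DESeq2 1.42.0 were also used. Only limma's Tabloncillo difference and landrace F-test were tried on simulated data, with the same spread setting for all genes. The count models and the contrasts of single landraces were not. Named genes are the first 2 by rank, the 2 most negative and the 2 most positive in Tabloncillo, and the 2 with the smallest landrace p. Planned gene lists and cell type markers needed gene names and were not used. The 150 genes and all choices were made with earlier results of these data known. Alternatives were other pseudocounts and filters, quantile normalization, a replicate block, count models and leaving out each library.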

Additional observations from a re-analysis of the deposited data

How the results depend on the processing

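The choice of genes kept 147 of 150 at a pseudocount of 0.1, 145 at 10, 147 after quantile normalization, 110 with a mean of at least 50, 109 with a mean of at least 200 and 124 when all 8 landraces chose, and between 118 and 147 with 1 library left out. In Tabloncillo 0 of the 150 passed in limma (23 at an unadjusted p under 0.05), against 55 of 26156 tested genes. Quantile normalization gave 1, against 84 tested genes, and a replicate block 1, against 77. There a single gene put the share of the 150 above that of all tested genes. DESeq2 gave 5, against 1096 tested genes, a smaller share of the 150 than of all. edgeR gave 0, against 8, and the 4 Tabloncillo libraries alone gave 0. Leaving out 1 library changed the count in some fits. The median Tabloncillo difference ran from -0.73 to -0.66 over the other settings and from -1.29 to 0.15 without single Tabloncillo libraries. Zm00001eb077880 changed sign in edgeR (-1.08), in DESeq2 (-1.08) and without the fifth leaf replicate 1 of Tabloncillo (-2.17), and Zm00001eb068280 did without that library (-0.38). Leaving out the fifth leaf replicate 2 instead gave 5.19 and 2.63, the highest values of these 2 genes.

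The 48 genes that differ between landraces became 92 in DESeq2 (61.3%, against 53.1% of all tested genes) and 36 to 70 with 1 library left out. Against the other 7, DESeq2 gave 27 in Tabloncillo (18.0%, against 11.8% of all tested genes), 9 in Mushito (6% against 8.58%), 9 in Gordo (6% against 11.3%), 16 in Palomero (10.7% against 13.7%) and 15 in Jala (10% against 12.1%). edgeR gave 20 in Tabloncillo (13.3% against 7.97%) and 6 in Mushito (4% against 6.44%). Only in Tabloncillo, among these, did the share move from below to above that of all tested genes. In edgeR Jala also moved above, by little (12 of 150, against 2084 of 26156 tested genes). In DESeq2 Zapalote moved from above to below (10 of 150, against 2116 of 26156). Mushito had 5 at a pseudocount of 10. Without Tabloncillo, a choice made after seeing the data, Mushito had 5 (3.33% against 6.22%), Palomero 16 (10.7% against 11.2%) and Jala 16 (10.7% against 10.2%, where it was below with Tabloncillo). Leaving out 1 library at a time, Nal-tel had from 10 to 37, Reventador from 9 to 30 and Tabloncillo from 1 to 16. Jala then had from 4 to 12, Palomero from 2 to 11, Zapalote from 1 to 9, Gordo from 0 to 7 and Mushito from 2 to 5. The sets by replicate differences, added after seeing the data, gave 13 lower genes with weighted linkage and 9 without the ninth leaf differences of Jala and Zapalote. Same-numbered libraries had deviations from their group means that correlated from -0.18 to 0.11 over the 8 landraces, 1 of 8 above 0.1. The main fit did not pair them, and these correlations cannot decide whether such libraries shared plants or preparation. The replicate block moved no other count by over 1.5 times. The cause of these changes was not tested. Each group held 2 libraries, which limits every test here.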
